A study of Oryza sativa with 15 samples.

Results

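The genes described here were higher in rice shoots grown in dry soil and not higher in shoots given a heat shock. They were chosen from the measured values themselves. A gene was taken when its mean in severe drought was at least 5 CPM (read counts scaled to library size by the trimmed mean of M-values, TMM). Its means in mild and severe drought, each with 0.1 CPM added, had to be at least 2 times the wet control mean. Its means after 30 and 60 min of heat had to be at most 1.25 times the wet control mean. The nicotianamine synthase gene NAS3 was left out by the same rule. The rule found 83 of the 24073 genes in the table (0.345%), and all 83 passed the filter on low counts that left 20462 genes for testing. Without the heat limits 175 genes met the drought criteria, so the 83 made up 47.4% of them and 92 genes (52.6%) had a heat mean above the limit.

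All libraries came from whole shoots of the rice cultivar Nipponbare, 3 libraries in each of 5 groups, 15 in all. After 3 days of germination, seedlings stood 7 to a pot for 10 days, with 12 h of light at 30 °C and 12 h of dark at 27 °C, at 90% humidity. Wet control pots held 3 g of water per g of soil, mild drought pots 1.5 g and severe drought pots 1.25 g, throughout growth. Heat-shocked plants were wet control plants moved on day 10 to a chamber at 40 °C for 30 or 60 min, so no group had drought and heat together. Every group was collected 6 h after dawn. Nothing in the labels says whether replicates came from separate pots or batches, so the spread between them may be partly technical, and p-values measure that spread alone.

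In plants, drying soil raises the hormone abscisic acid (ABA), which closes stomata and switches on protective genes through receptors, protein phosphatases and kinases. Heat acts first on protein folding and is met by heat shock factors and chaperones, while water channels, called aquaporins, and cell wall proteins adjust water flow and growth under many stresses. Genes that are high in one stress and not in the other are used to tell the programmes apart.

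Library totals were 49479059 to 77969214 counts. The TMM factors of the 30 min heat libraries ranged from 0.622 to 0.706 and those of the 12 other libraries from 0.999 to 1.318, so the 30 min group depends most on the scaling. With totals alone, the median log2 ratio of all tested genes after 30 min of heat shifted by -0.83 against the value with TMM, and by -0.12 to -0.16 for the other groups against the wet control. The leaf markers CAB1R and CAB2R, chlorophyll-binding proteins, summed to 20870 to 31930 CPM in the wet control, 27960 to 39590 CPM in the drought groups, 29330 to 36930 CPM after 30 min of heat and 18940 to 21900 CPM after 60 min. Of the root silicon transporters, LSI2 had no count in any library and LSI1 had 11.52 to 18.93 CPM in the wet control and 15.3 to 33.2 CPM in drought. The shoot meristem gene OSH1 had no count, and the seed storage gene GLUA1 stayed at or below 0.0969 CPM. The part of leaf or root tissue in the values below was not tested. In bulk tissue, fewer cells of a type and less RNA per cell cannot be told apart.

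Across the 83 genes the median ratio of the mild drought mean to the wet control mean was 2.52, with a range of 2.005 to 7.46. In severe drought the median ratio was 2.72, with a range of 2.008 to 7.04. After 30 min of heat the median ratio was 0.554 (0.0368 to 1.2), and after 60 min it was 0.650 (0.0953 to 1.24). Over all 20462 tested genes the same medians were 0.998, 0.985, 0.912 and 0.945. These are the values that chose the genes, so they carry no test. Both heat means were below the wet control mean in 66 of the 83 genes, beside 43.7% of tested genes, a count that the heat limits of the rule favour. The heat means of 16 genes were at or under 0.5 times the wet control at both times, those of 22 at 30 min alone and those of 11 at 60 min alone. Another 34 stayed above 0.5 at both. Among all tested genes these shares were 9.52%, 9.42%, 6.63% and 74.4%, but the tested genes had no heat limit. A heat mean at or above the wet control mean occurred in 10 genes at 30 min and 8 genes at 60 min, beside 43.7% and 45.7% of tested genes. LOC_Os08g02210 was the 1 gene counted at both, beside 33.1% of tested genes. With totals alone in place of TMM, all 83 genes were below the wet control mean after 30 min of heat. Their median log2 ratio at 30 min differed from that of all tested genes by -0.72 with TMM and by -0.71 with totals alone.

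**Figure D1:**
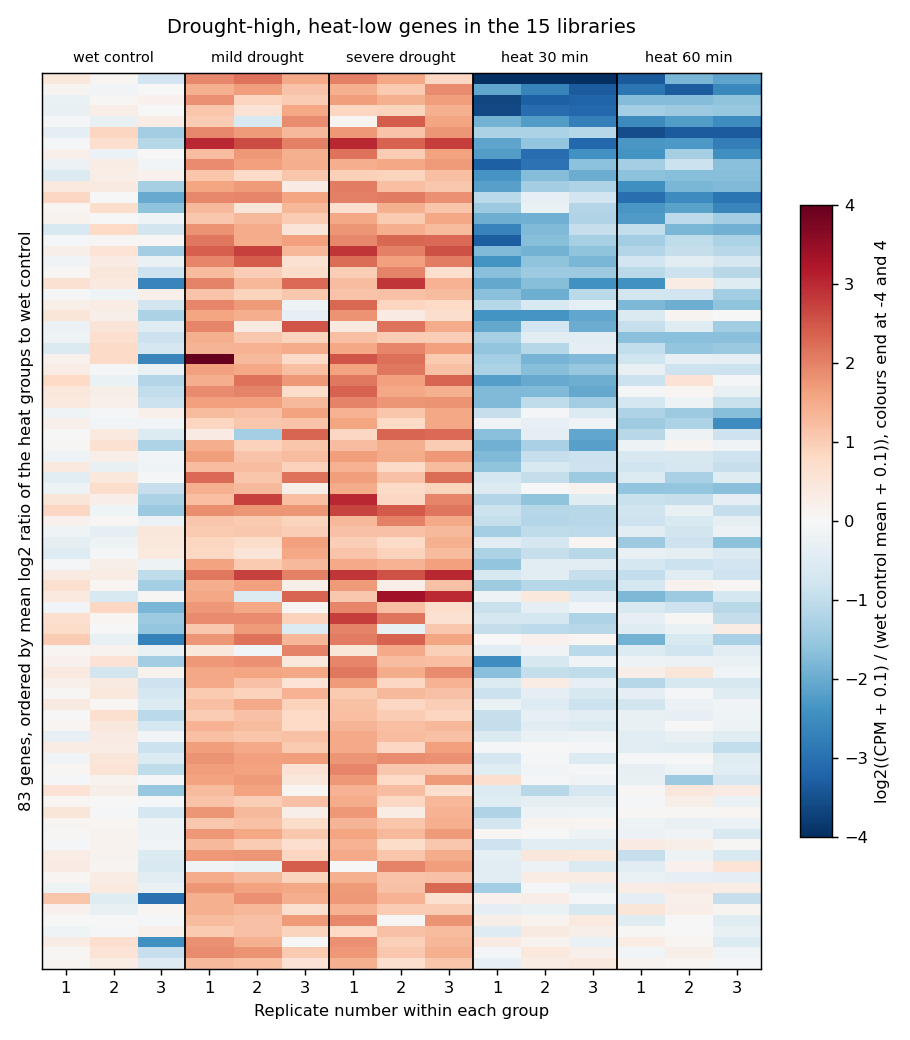
Heat map of the 83 genes (rows) in the 15 libraries (columns), as log2 of CPM over the wet control mean with 0.1 CPM added to both, ordered from the lowest to the highest heat ratio. The drought columns are mostly red, with some blue cells such as LOC_Os04g48380 in mild drought replicate 2, and the heat columns are mostly blue. Wet control replicate 3 is bluer than replicates 1 and 2, and colours end at -4 and 4.

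The limits fell in a continuous range of values. The genes just inside the mild drought limit were LOC_Os02g51910 at 2.005 times and LOC_Os04g35864 at 2.007 times the wet control, and LOC_Os01g53090 and LOC_Os11g18194 lay just outside at 1.985 and 1.983 times. In severe drought, LOC_Os02g23823 (2.008 times) and LOC_Os04g35864 (2.034 times) were just inside, and LOC_Os02g36450 (1.973 times) and LOC_Os09g31130 (1.963 times) just outside. At the 30 min heat limit LOC_Os01g73250 (1.2 times) and LOC_Os03g39230 (1.16 times) were the nearest genes inside, and LOC_Os11g34350 (1.281 times) and LOC_Os12g33150 (1.282 times) the nearest outside. At the 60 min limit LOC_Os05g41820 (1.244 times) and LOC_Os04g53998 (1.226 times) were inside, and LOC_Os04g49650 (1.251 times) and LOC_Os08g31630 (1.253 times) outside. For the severe drought minimum, LOC_Os02g21750 (5.09 CPM) and LOC_Os05g41630 (5.11 CPM) were inside, and LOC_Os05g12320 (4.78 CPM) and LOC_Os04g47080 (4.77 CPM) outside.

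**Figure D2:**
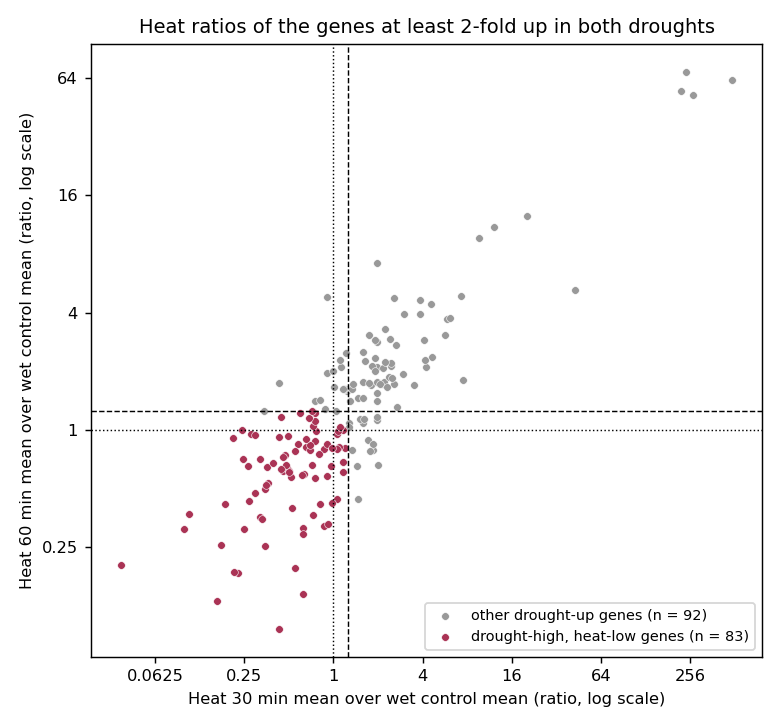
Ratio of the heat 60 min mean (vertical) to the wet control mean against that of the heat 30 min mean (horizontal), both on log scales, for the 175 genes that met the drought criteria. The 83 genes lie left of and below the dashed lines at 1.25 times, the 92 others lie beyond at least 1 of them, and the dotted lines mark 1 time the wet control.

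Only 4 of the 83 loci were given a name, checked by symbol and approximate position in a reference table, and the other 79 are given by locus. PIP2-7 (LOC_Os09g36930) is an aquaporin of the plasma membrane, CIPK12 (LOC_Os01g55450) a protein kinase that works with calcium sensors of the calcineurin B-like family, CYP90B2 (LOC_Os03g12660, DWARF4) a steroid hydroxylase of brassinosteroid synthesis, and EXLA2 (LOC_Os10g39640) an expansin-like protein of the cell wall. The last 3 were looked up after the members were known. PIP2-7 and EXLA2 left the set when some single library was left out. CIPK12 and CYP90B2 were among the 33 of the 83 genes kept whichever library was left out.

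PIP2-7 had 376.5, 580.4 and 116.9 CPM in wet control replicates 1 to 3, 886, 498 and 889.5 CPM in mild drought and 574, 955 and 778 CPM in severe drought. After 30 min of heat it had 130, 297 and 160 CPM, and after 60 min 71.4, 80.9 and 57.2 CPM. Wet control replicate 2 lay above the lowest library of each drought group, so drought and wet libraries overlapped, while all 60 min heat libraries were below every other library. Its group means were 358 ± 232 CPM (SD, n = 3) in the wet control, 758 ± 225 CPM in mild drought, 769 ± 191 CPM in severe drought, 196 ± 88.8 CPM after 30 min of heat and 69.8 ± 11.9 CPM after 60 min. The mean ratios to the wet control were 2.12, 2.15, 0.547 and 0.195.

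CIPK12 had 8.09, 7.08 and 3.03 CPM in the wet control, 22.8, 24.5 and 10.2 CPM in mild drought and 31.4, 17.8 and 16.4 CPM in severe drought. It had 1.72, 1.71 and 1.40 CPM after 30 min of heat, and 5.92, 6.47 and 4.87 CPM after 60 min. All 6 drought libraries were above all 3 wet libraries, the 30 min heat libraries were below all others, and the 60 min libraries lay within the wet range. Its mean after 30 min of heat was 0.277 times and after 60 min 0.949 times that of the wet control.

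CYP90B2 had 14.0, 12.3 and 5.83 CPM in the wet control, 33.8, 33.5 and 26.4 CPM in mild drought and 43.0, 36.4 and 37.7 CPM in severe drought. Each severe drought library was above each mild drought library, and all 6 were above the wet control. After heat it had 3.10, 5.22 and 4.05 CPM at 30 min and 6.59, 9.22 and 5.76 CPM at 60 min, and the 30 min libraries were all below the lowest wet library. EXLA2 had 3.75, 4.06 and 4.91 CPM in the wet control, 8.96, 9.68 and 7.88 CPM in mild drought and 7.42, 9.74 and 10.4 CPM in severe drought, with no overlap between the wet and drought libraries. Its heat libraries, at 2.92, 5.49 and 5.002 CPM after 30 min and 4.35, 4.30 and 3.40 CPM after 60 min, overlapped the wet control. EXLA2 was thus high in drought with heat means of 1.053 and 0.949 times the wet control, where PIP2-7 had 60 min heat values well under it.

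**Figure D3:**
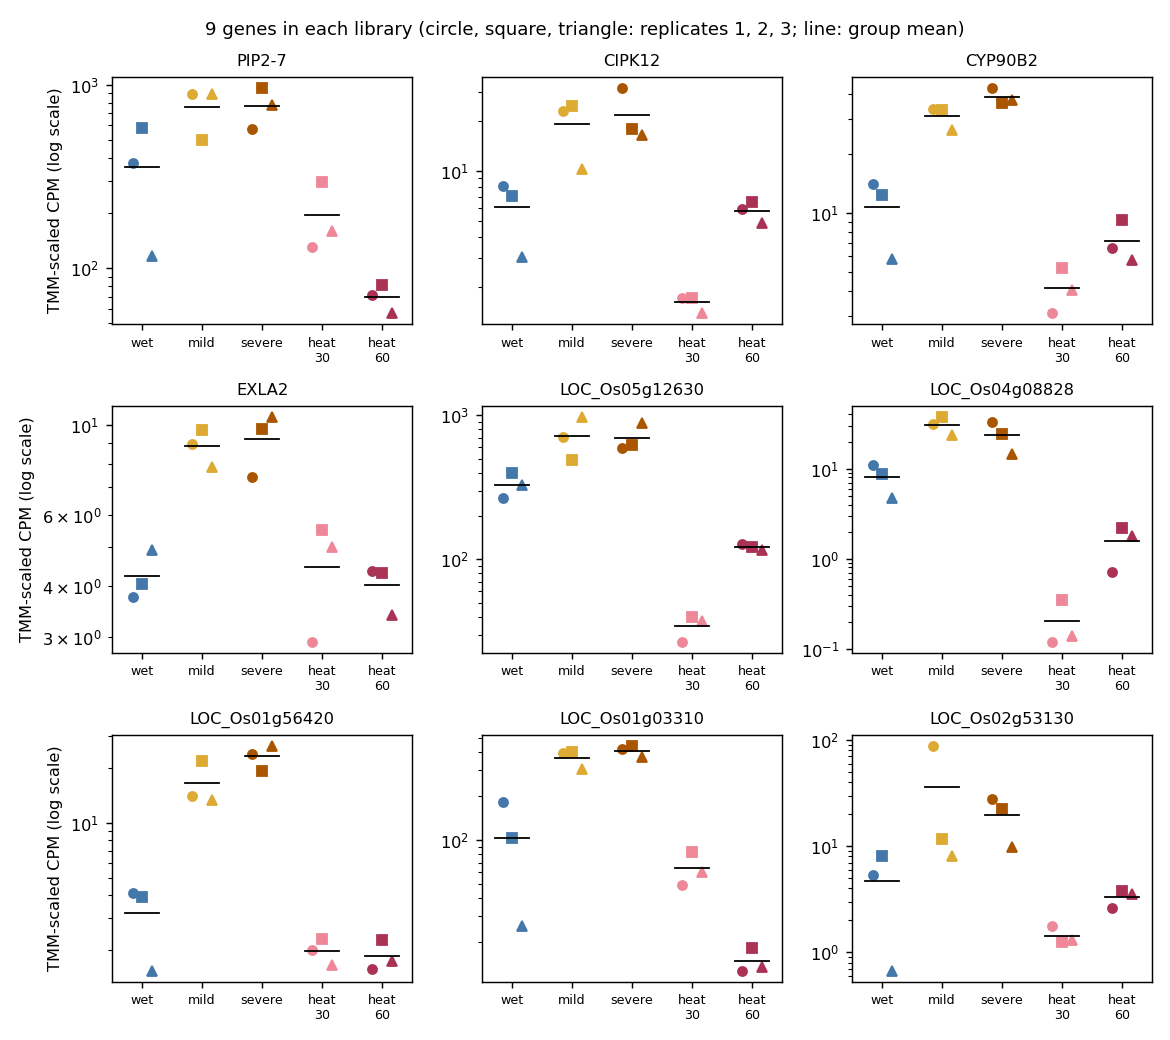
TMM-scaled CPM (log scale, a separate scale for each gene) of 9 of the genes in each of the 15 libraries, with circles, squares and triangles for replicates 1, 2 and 3 and a line at the group mean. All 3 PIP2-7 libraries after 60 min of heat lie at or below 80.9 CPM, and the mild drought mean of LOC_Os02g53130 is drawn up by replicate 1 at 87.6 CPM.

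The 10 genes with the highest ratios of severe drought to wet control are known here by locus. LOC_Os01g56420 had the highest, with 4.12, 3.93 and 1.55 CPM in the wet control, 14.0, 21.9 and 13.3 CPM in mild drought and 23.9, 19.1 and 26.3 CPM in severe drought, a mean ratio of 7.04. Its heat libraries ranged from 1.57 to 2.31 CPM, within the wet range, and its drought libraries were apart from all others. LOC_Os07g02120 had 1.13, 1.95 and 0.485 CPM in the wet control, 5.11 to 10.4 CPM over the 6 drought libraries and 0.0465 to 0.330 CPM over the 6 heat libraries. Drought, wet and heat libraries of this gene formed 3 ranges without overlap, and its severe drought ratio was 6.65. Its lowest value, 0.0465 CPM in heat 30 min replicate 3, was at the floor. A count of 3 there was 0.0442 CPM before the TMM factor of 0.633, which raises it. LOC_Os04g24804 also gave 3 separate ranges, at 3.23, 3.53 and 3.58 CPM in the wet control, 9.80 to 17.2 CPM in drought and 0.260 to 1.67 CPM in heat. LOC_Os02g21009 had 6.86, 8.48 and 2.15 CPM in the wet control and 14.7 to 43.2 CPM in drought, with heat libraries at 1.49 to 2.95 CPM.

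Libraries of 1 group spread more widely in other genes with high ratios. LOC_Os07g14600 had 0.957, 0.429 and 0.740 CPM in the wet control, 2.25, 0.452 and 3.97 CPM in mild drought and 1.62, 8.28 and 6.33 CPM in severe drought. Its mild drought replicate 2 lay within the wet range, and severe drought replicates 2 and 3 set the mean ratio of 6.81. LOC_Os02g53130 had 87.6, 11.7 and 8.11 CPM in mild drought, where replicate 1 alone carried the mean, against 5.31, 8.15 and 0.673 CPM in the wet control and 27.5, 22.2 and 9.78 CPM in severe drought. It was the only gene of the 83 whose mild drought mean was at least 1.5 times its severe drought mean. LOC_Os03g30420 had 11.4, 2.45 and 5.44 CPM in severe drought and 1.89, 1.60 and 0.498 CPM in the wet control, so its wet and severe drought libraries did not overlap although severe drought spread widely. In LOC_Os04g24300, with 2.47, 1.12 and 0.552 CPM in the wet control, all 6 drought libraries were higher, at 3.92 to 7.41 CPM. LOC_Os07g14600, LOC_Os03g30420 and LOC_Os04g24300 left the set when some single library was left out.

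4 pairs of members lay next to each other or nearly so in the gene order of the table, so reads shared between neighbours or close copies could have been split between them. LOC_Os03g14915 had 10.3, 5.11 and 2.01 CPM in the wet control and 38.6, 32.3 and 25.8 CPM in severe drought, and its neighbour LOC_Os03g14910 had 2.97, 1.97 and 0.606 CPM and 13.1, 8.39 and 2.86 CPM. Both had the same order of replicates in these groups, but severe drought replicate 3 of LOC_Os03g14910 lay within its wet range. LOC_Os01g03310 had 183, 103 and 25.5 CPM in the wet control, 396, 400 and 307.5 CPM in mild drought and 423, 441 and 369 CPM in severe drought, without overlap. Its neighbour LOC_Os01g03320 had 78.7, 31.0 and 5.86 CPM in the wet control and 95.9 to 199.8 CPM over the drought libraries. The other pairs were LOC_Os01g12760 with LOC_Os01g12770, and LOC_Os09g31170 with LOC_Os09g31200, the latter 2 rows apart. By chromosome, 16 of the 83 genes were on chromosome 3 and 14 on chromosome 1, which hold 13.3% and 14.2% of all tested genes, and 1 was on chromosome 12.

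The genes with the most CPM in severe drought, a ranking that is not per length, were LOC_Os01g13690, LOC_Os02g10120, PIP2-7, LOC_Os05g12630, LOC_Os08g03310 and LOC_Os01g03310. Of these, only LOC_Os01g03310 met the rule whichever library was left out. LOC_Os01g13690 had 608, 1110 and 387 CPM in the wet control, 1864, 1495 and 1287 CPM in mild drought and 1603, 1427 and 1398 CPM in severe drought, without overlap. LOC_Os02g10120 had 476, 919.9 and 145 CPM in the wet control, 1724, 1514 and 538 CPM in mild drought and 1976, 1187 and 829.8 CPM in severe drought. Replicate 3 of both drought groups thus lay below wet replicate 2. LOC_Os05g12630 had 267, 397.5 and 326 CPM in the wet control and 488 to 969 CPM in drought. Its heat libraries, at 26.8 to 39.8 CPM after 30 min and 116 to 128 CPM after 60 min, were below all of these. LOC_Os08g03310 had 251, 468 and 152 CPM in the wet control and 339 to 808 CPM in drought, with mild replicate 3 within the wet range.

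The 6 genes with the lowest heat ratios were LOC_Os04g08828, LOC_Os01g02370, LOC_Os03g41330, LOC_Os08g28790, LOC_Os07g02120 and LOC_Os08g15149. LOC_Os04g08828 had 10.98, 8.75 and 4.71 CPM in the wet control, 14.5 to 37.3 CPM in drought and 0.120, 0.351 and 0.140 CPM after 30 min of heat, a mean ratio of 0.0368 to the wet control. LOC_Os03g41330 had 8.29, 10.5 and 11.4 CPM in the wet control, 18.3 to 35.9 CPM in drought and 0.720, 0.949 and 1.000 CPM after 30 min of heat. LOC_Os01g02370 had 1.99, 1.72 and 1.84 CPM in the wet control, 3.91 to 7.14 CPM in drought and 0.0931 to 0.360 CPM over the heat libraries. In these 3 genes the drought, wet and heat ranges did not overlap. LOC_Os08g15149 was separated in the same way, with 4.08 to 5.62 CPM in the wet control, 9.81 to 21.96 CPM in drought and 0.495 to 1.86 CPM in heat. LOC_Os08g28790 was not, since its mild drought replicate 2, at 5.95 CPM, was below all wet libraries, which had 7.43 to 11.3 CPM. LOC_Os01g02370, LOC_Os03g41330 and LOC_Os08g28790 left the set when some single library was left out.

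Over the whole set, 63 genes had all mild drought libraries above all wet libraries and 72 had all severe drought libraries above them. Among all tested genes these shares were 10.2% and 10.9%. All 6 drought libraries were above all 9 others in 59 of the 83 genes and in 2.84% of tested genes. The edgeR quasi-likelihood fit over all genes called 32 of the 83 higher in mild drought, where 0.909% of tested genes were called higher, and 44 in severe drought, where 1.64% were. With 1 library left out, the member count in mild drought was lowest at 3, among 23 genes called higher, when mild drought replicate 1 was missing. It was highest at 47, among 498 genes, when mild drought replicate 3 was missing. In severe drought the counts became 20 of 142 genes (without severe drought replicate 3) to 41 of 353 genes (without wet control replicate 2). In mild drought they were also 13, 4 and 9 without wet control replicates 1 and 3 and mild drought replicate 2, among 85, 38 and 51 genes. In severe drought they were 24 and 25 without wet control replicate 1 and severe drought replicate 1, among 164 and 199 genes. Fits to the 2 groups alone called 0 and 4 members, among 0 and 13 genes called higher. DESeq2 called 67 and 68 members, among 1057 and 925 genes. The fit over all groups called 33 lower after 30 min of heat, where 19.6% were called lower, and 29 after 60 min, where 15.8% were. With totals alone 73 members were called lower after 30 min, among 12475 genes called lower in all. Without heat 60 min replicate 3, 18 members were called lower after 60 min, among 2046 genes. All wet libraries lay above all heat libraries in 34 genes at 30 min and 37 genes at 60 min, beside 25% and 24.7% of tested genes. The rule used these contrasts, so nothing is read from these counts.

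The comparison of severe with mild drought was not itself a criterion of the rule, and asks whether drier soil gave a further difference. The severe drought mean was above the mild drought mean in 65 of the 83 genes (78.3%), beside 45.8% of all tested genes. This share is not free of the rule, which set limits on both drought means and a minimum on severe drought alone: 125 genes met all criteria but the mild drought limit and 95 all but the severe drought limit. The median ratio of severe to mild was 1.09, with a range of 0.556 to 2.37, and over all tested genes it was 0.988. The 92 genes that met the drought criteria with a heat mean above the limit had a like share of 79.3% and a median ratio of 1.12. A severe mean at least 1.5 times the mild mean occurred in 4 genes (4.82%), beside 7.5% of all tested genes, and in 6 genes all severe libraries were above all mild libraries, beside 2.42% of tested genes. The edgeR fit called 0% of tested genes, and so 0 members, at an adjusted p under 0.05. At an unadjusted p under 0.05 it passed 2.78% of tested genes and 1 member, and DESeq2 called 45 genes, none of them members. That member, LOC_Os04g43390, had 13.0, 12.5 and 11.2 CPM in mild drought and 15.2, 24.2 and 17.4 CPM in severe drought, beside 5.05 to 6.66 CPM in the wet control. Its log2 fold change of 0.62 ± 0.18 (SE) had an adjusted p of 1 in edgeR. CYP90B2 differed by 0.32 ± 0.29 and PIP2-7 by 0.02 ± 0.47 on the same scale, both with an adjusted p of 1 in edgeR. A p that misses the threshold does not show that the 2 droughts gave the same level.

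The change from 30 to 60 min of heat was also not used by the rule, although both heat means were capped at 1.25 times the wet control. The edgeR fit called 22 of the 83 genes, 26.5% of them, beside 24.3% of all tested genes, so the share was near the background. Of these 22 genes, 14 rose (10.4% of tested genes rose) and 8 fell (13.9% of tested genes fell). The other 61 genes did not pass the test. Without heat 30 min replicate 2 the calls were 10 higher and 3 lower, beside 1365 and 1786 over all tested genes. The 60 min libraries were all above the 30 min libraries in 29 genes and all below them in 15 genes, beside 23% and 26.2% of tested genes. With totals alone the calls became 45 higher and 2 lower, beside 10067 and 679 over all tested genes. The median log2 ratio of all tested genes between the times then shifted by 0.71. The rises and falls below are therefore relative to the TMM scale.

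5 genes had the largest rises. LOC_Os04g08828 went from 0.120 to 0.351 CPM over the 30 min libraries to 0.706, 2.202 and 1.80 CPM at 60 min, a log2 fold change of 2.93 ± 0.55 (SE, edgeR adjusted p = 0.00237). Its 30 min values rest on few reads, as a count of 3 in those libraries was 0.0385 to 0.0442 CPM before the TMM factor. LOC_Os04g24300 had 0.220, 0.268 and 0.279 CPM at 30 min and 0.719, 2.12 and 1.30 CPM at 60 min, a log2 fold change of 2.43 ± 0.54 (edgeR adjusted p = 0.00607), which took it back to 0.999 times its wet control mean. CIPK12 rose by 1.84 ± 0.40 (edgeR adjusted p = 0.00581) on the log2 scale. In all 3 genes every 60 min library was above every 30 min library. LOC_Os11g47240 rose by 2.18 ± 0.55 on the log2 scale (edgeR adjusted p = 0.0134), from 1.98, 2.06 and 2.51 CPM to 7.28, 11.6 and 10.8 CPM, and its call was lost without heat 30 min replicate 2 (edgeR adjusted p = 0.0522). LOC_Os05g12630 rose by 1.82 ± 0.26 (edgeR adjusted p = 0.000358) and LOC_Os03g41330, the next in size, by 1.77 ± 0.25 (edgeR adjusted p = 0.000252). Both were still at 0.369 and 0.309 times their wet control means at 60 min, whereas LOC_Os11g47240 and CIPK12 were at 0.909 and 0.949 times.

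Among the falls, LOC_Os02g14440 had 5.08, 5.07 and 5.51 CPM at 30 min and 0.967, 1.14 and 1.12 CPM at 60 min, a log2 fold change of -2.28 ± 0.44 (edgeR adjusted p = 0.00262). LOC_Os01g03310 had 49.2, 83.0 and 60.6 CPM at 30 min and 12.7, 18.2 and 13.5 CPM at 60 min, a log2 fold change of -2.12 ± 0.49 (edgeR adjusted p = 0.00828). The libraries of the 2 times did not overlap in either gene. PIP2-7 fell by 1.49 ± 0.48 on the log2 scale (edgeR adjusted p = 0.0403), LOC_Os08g03310 by 1.49 ± 0.39 (0.0162), LOC_Os05g49240 by 1.47 ± 0.29 (0.00334) and LOC_Os01g13690 by 0.99 ± 0.33 (0.0461). With totals alone these 4 kept a lower mean at 60 min, with log2 fold changes of -0.71, -0.71, -0.72 and -0.21, but were no longer called (edgeR adjusted p = 0.203, 0.0923, 0.0592 and 0.548). The call of PIP2-7 was lost on leaving out any of heat 30 min replicates 2 and 3 and heat 60 min replicates 1 to 3, with edgeR adjusted p of 0.0604 to 0.177. The calls of LOC_Os08g03310 (0.0507 to 0.0654) and LOC_Os01g13690 (0.121 to 0.156) were lost without any of the same 5 libraries.

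Replicates with the same number deviated together in the heat groups. A fit with the replicate number as a block called 14 members higher and 7 lower, beside 1998 and 2782 over all tested genes. Under this replicate block the call of CYP90B2 was gained, with 0.78 ± 0.26 on the log2 scale (edgeR adjusted p = 0.0499) in place of 0.80 ± 0.29 (0.0637), and those of LOC_Os05g41630 (0.0512) and LOC_Os01g13690 (0.0561) were lost.

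**Figure D4:**
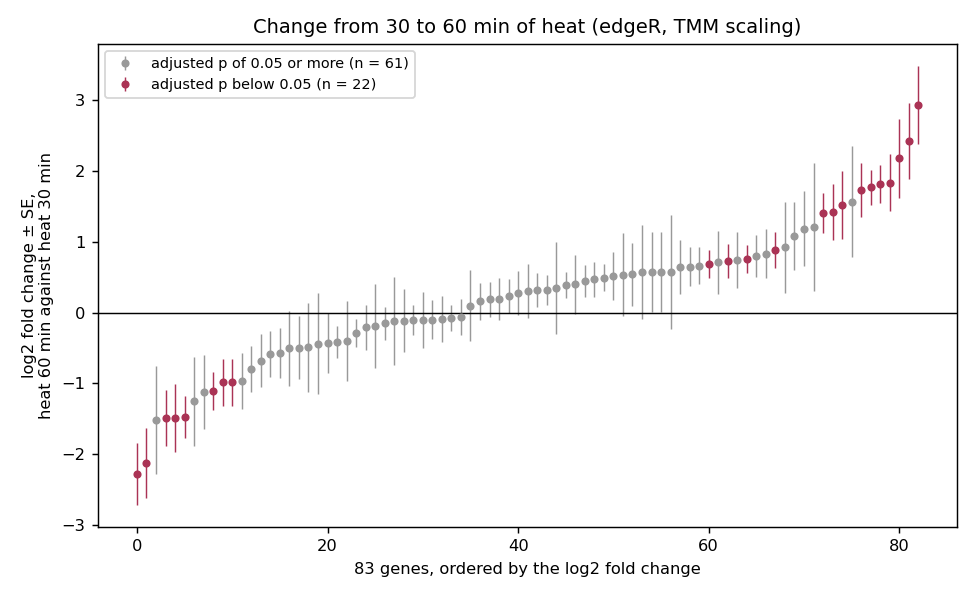
Log2 fold change with its SE (edgeR, TMM scaling, n = 3 libraries a group) between 60 and 30 min of heat for the 83 genes, in order of size. Coloured points mark the 22 genes with an adjusted p under 0.05, 14 above 0 and 8 below, with a range from -2.28 to 2.93.

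Other genes of the water stress pathways were read from lists of loci with known roles, of which PIP2-7 was the only member of the set. Of 91 named list genes in the table, 7 met the drought criteria, and 6 of these were kept out by their heat means. 4 of the 6 were clade A protein phosphatases 2C, which hold back ABA signalling: PP2C08, PP2C09, PP2C30 and PP2C68. PP2C09 (LOC_Os01g62760) was the closest to the limit, with heat means of 1.29 and 1.40 times the wet control. It had 25.6, 27.7 and 24.0 CPM in the wet control, 82.7, 139 and 97.5 CPM in severe drought, 29.6 to 35.5 CPM after 30 min of heat and 30.0 to 40.9 CPM after 60 min. Its log2 fold change in severe drought was 2.05 ± 0.20 (edgeR adjusted p = 0.000755), and the changes of 0.37 ± 0.19 and 0.49 ± 0.19 after 30 and 60 min of heat did not pass the test (edgeR adjusted p = 0.146 and 0.0683). PP2C30 (LOC_Os03g16170) rose in severe drought by 3.28 ± 0.40 on the log2 scale (edgeR adjusted p = 0.00181) and also rose after heat, by 1.66 ± 0.38 and 2.07 ± 0.38 (0.00395 and 0.00132). With the 2 groups fitted alone, the severe drought call of PP2C30 was lost (edgeR adjusted p = 0.105). Of 21 tested genes of ABA signalling with a reference symbol, 4 rose in mild and 7 in severe drought and none fell, while 9 rose and 1 fell after 30 min of heat. Over all 27 tested loci of the list, 7 rose and 1 fell in severe drought and 11 rose and 1 fell after 30 min of heat. The median log2 fold change in severe drought was 0.19 over the 21 genes and 0.07 over the 27 loci, beside -0.02 for all tested genes. Of all tested genes, 1.64% rose and 1.05% fell in severe drought, 19.3% rose and 19.6% fell after 30 min of heat, and 16.2% rose and 15.8% fell after 60 min, and the list counts here and below stand beside these shares.

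Of 16 tested aquaporins with a reference symbol, 2 rose in mild drought and 3 in severe drought with none falling, and at 60 min of heat 6 rose and 2 fell. Over all 17 tested loci the drought counts were the same, and at 60 min 6 rose and 3 fell. TIP1-2 (LOC_Os01g74450), of the vacuolar membrane, met the drought criteria but had 1206, 1803 and 1727 CPM after 30 min of heat against 244, 298 and 227 CPM in the wet control. It rose by 1.96 ± 0.21 in severe drought (edgeR adjusted p = 0.00089) and by 2.62 ± 0.21 after 30 min of heat (5.3e-07) on the log2 scale, where PIP2-7 had heat means below the wet control. With the 2 groups fitted alone, the severe drought call of TIP1-2 was lost (edgeR adjusted p = 0.0518). PIP1-1 (LOC_Os02g44630) had the drought-only direction at a smaller size, with 460, 609.5 and 613 CPM in the wet control, 926, 1072 and 1062 CPM in severe drought and 535 to 638 CPM over the heat libraries. Its severe drought change was 0.86 ± 0.16 (edgeR adjusted p = 0.014). The call was lost without wet control replicate 1 (0.0595) or severe drought replicate 3 (0.0608), and with the 2 groups fitted alone (0.211). NCED3 (LOC_Os03g44380), an enzyme of ABA synthesis, had 0.274 to 0.848 CPM in the wet control, 2.41 to 5.08 CPM in severe drought and 3.33 to 4.13 CPM after 60 min of heat. After 30 min of heat it had 1.04 to 1.36 CPM, above all wet libraries, but that change did not pass the test (edgeR adjusted p = 0.139). NCED3 was thus high in severe drought and late heat, and was outside the rule. Its severe drought call (edgeR adjusted p = 0.0163) was lost with the 2 groups fitted alone (0.181) or without severe drought replicate 2 (0.0566). The transcription factor HOX22 (LOC_Os04g45810) met the drought criteria with heat means of 2.47 and 2.2 times the wet control. Among 12 tested drought transcription factors with a reference symbol, 3 rose in severe drought and 0 fell, and 7 rose and 1 fell after 60 min of heat. Over all 18 tested loci of that list, 3 rose and 1 fell in severe drought, and 10 rose and 2 fell after 60 min. The 3 that rose were HOX22 and the class C heat shock factors HSFC2A and HSFC2B. With the 2 groups fitted alone their severe drought calls were lost (edgeR adjusted p = 0.0923, 0.215 and 0.142). That of HSFC2A was also lost without wet control replicate 1 (0.0996) or 3 (0.0745), or severe drought replicate 2 (0.0962). Among 12 tested genes with a symbol for late embryogenesis abundant proteins and osmoprotection, 0 rose and 3 fell in severe drought, while 4 rose and 0 fell after 60 min of heat. Over all 17 loci of that list, 0 rose and 3 fell in severe drought and 7 rose and 0 fell after 60 min. The 3 that fell were EMP1, LEA3-2 and TPP2. The call of EMP1 was lost with the replicate block, with the 2 groups fitted alone and without any 1 wet or severe drought library (edgeR adjusted p = 0.0573 to 0.125). That of LEA3-2 was lost without severe drought replicate 1 (0.0575) or 3 (0.0657), and that of TPP2 with the 2 groups fitted alone (0.0725). Heat counts of these lists are on the TMM scale, from which totals alone differ by the shifts given above.

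Wet control replicate 3 stood apart from replicates 1 and 2 in the 83 genes. It was the lowest of the wet libraries in 61 of them, beside 40.3% of all tested genes, with a median deviation of -0.56 on the log2 scale from the wet mean. The 83 genes together had 3790, 5250 and 2168 CPM in wet control replicates 1 to 3. Their sums were 7332 to 10250 CPM over the drought libraries and 1773 to 2733 CPM over the heat libraries, so all 6 drought libraries were above all 9 others in the sum. The limits of the rule favour this order, so nothing is read from it, and the genes with the most CPM weigh most in the sum. Among drought-up genes above the heat limit, replicate 3 was the lowest wet library in 76.1%, beside 73.5% of the 83. Mild drought replicate 3 was likewise the lowest of its group in 51 of the 83 genes, beside 40.2% of tested genes.

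The size of the drought ratio and of the heat ratio thus depended on the wet library taken as the reference. Against replicate 3 alone the median severe drought ratio was 4.15 and the median 30 min heat ratio 0.867, and against replicate 2 alone they were 2.46 and 0.492. With the drought and heat means kept, 59 of the 83 genes met all limits against replicate 1 alone, 46 against replicate 2 alone and 40 against replicate 3 alone. Leaving replicate 3 out of the wet mean, 57 genes stayed at 2 times or more in both droughts and 82 within the heat limit, and 56 met both. Among all tested genes 0.572% met both without replicate 3. In the wet control the median coefficient of variation of the 83 genes was 36.8%, beside 24% for all tested genes. In severe drought it was 24.3%, beside 20.7%. For the drought-up genes above the heat limit, the wet control and severe drought medians were 34.8% and 22.4%, near those of the 83.

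In a further reading, 1 replicate number was left out of all groups, the rule was applied to the rest and the left-out libraries were then read. The rule was chosen with earlier results of these data known, and the left-out values kept the scaling of all 15 libraries. Each left-out ratio was taken to a single wet library, which enters every limit. These shares are therefore description and do not test the rule. Without replicate 1 the rule gave 65 genes, of which 40 (61.5%) had both left-out drought libraries at 2 times the left-out wet library or more, beside 2.06% of tested genes. Both left-out heat libraries were within the limit in 61 (93.8%), beside 58.5%. Without replicate 2 the rule gave 145 genes, of which 26 (17.9%) met the drought limits in the left-out libraries, beside 1.18%, and 139 (95.9%) the heat limits, beside 55.2%. Without replicate 3 it gave 63 genes, of which 48 (76.2%) met the drought limits, beside 2.93%, and 37 (58.7%) the heat limits, beside 54.9%. The left-out wet library was here the low wet control replicate 3. All limits together were met by 37, 21 and 24 genes, that is 56.9%, 14.5% and 38.1% of those chosen, beside 1.02%, 0.331% and 0.857% of tested genes.

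**Figure D5:**
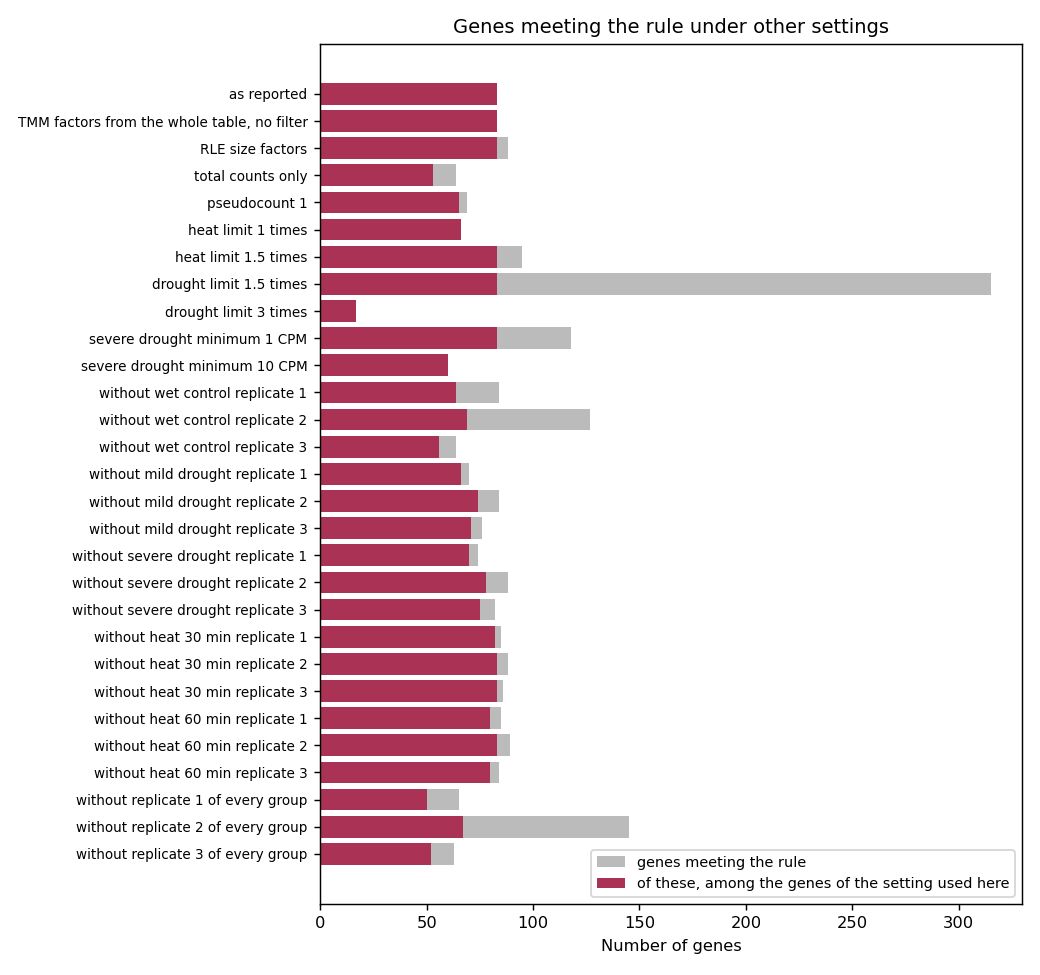
Number of genes that met the rule under each setting (whole bars), with the part of them that is among the 83 in the darker colour. The number is 127 without wet control replicate 2 and 64 without wet control replicate 3, and of the 83 genes 33 were kept whichever library was left out.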

How the data were processed

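Stranded mRNA libraries (NEBNext) were made from whole-shoot RNA, per the labels' protocols. The values are whole-number read counts per gene as the authors deposited them. The submitters' processing notes name Trimmomatic, HISAT2 and featureCounts. Their versions, the build and whether counting used strand are not given in the sources, so reads of overlapping or antisense genes may be mixed.

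Counts were fitted in R 4.3.3 with edgeR 4.0.16, all 15 libraries in 1 model with a mean per group, after filterByExpr (minimum count 10, minimum total 15), with TMM factors, a robust quasi-likelihood F-test and Benjamini-Hochberg adjustment over 20462 genes, at 0.05. The SE is the log2 fold change divided by the square root of F. DESeq2 1.42.0 was an alternative, and the others were scalings, limits, filters, a replicate block and leaving out libraries. Reading the 83 genes against each wet library was added after seeing the data. The fit was tested on simulated counts. The chi-square per gene between replicates was 30.1 to 500.9, so no pair within a group looked like copies of 1 library. A count of 3 in a library was 0.0385 to 0.0606 CPM by library totals, before the TMM factor. On the TMM scale it is a higher value in the 30 min heat libraries, whose factors were 0.622 to 0.706.

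Members and gene lists were chosen with earlier results of these data known. Named members had the highest drought ratios, the most CPM in severe drought, the lowest heat ratios, a value beside a limit, a reference name, or a place among up to 5 called in each direction. From each list up to 3 genes were named by the smallest p in severe drought, and PP2C68 for meeting the drought criteria. Names were put forward for chosen loci and checked by symbol and position in RefSeq (assembly ASM3414082v1). Of 129 list loci 96 had a symbol there and 92 lay within 1000 kb of the position expected from other loci. Same-numbered replicates deviated together in the heat groups, with correlations of 0.22 to 0.46. Those of differently numbered replicates were -0.42 to 0.28, so the ranges overlapped. The numbers were taken to pair these in the replicate block, and the main fit did not use them.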

Additional observations from a re-analysis of the deposited data

Results flagged for a closer look

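The effect of heat differed between 30 and 60 min, by the edgeR test of the difference itself, in 22 of the 83 genes, beside 24.3% of all tested genes. By log2 fold change from 30 to 60 min, the 14 genes that rose were LOC_Os04g08828 (2.93), LOC_Os04g24300 (2.43), LOC_Os11g47240 (2.18), CIPK12 (1.84), LOC_Os05g12630 (1.82), LOC_Os03g41330 (1.77), LOC_Os08g37030 (1.73), LOC_Os05g41630 (1.52), LOC_Os06g46460 (1.42), LOC_Os05g33900 (1.41), LOC_Os01g03950 (0.88), LOC_Os05g02250 (0.76), LOC_Os02g57990 (0.73) and LOC_Os09g31200 (0.69). The 8 that fell were LOC_Os01g13690 (-0.99), LOC_Os02g03570 (-0.99), LOC_Os02g21750 (-1.10), LOC_Os05g49240 (-1.47), LOC_Os08g03310 (-1.49), PIP2-7 (-1.49), LOC_Os01g03310 (-2.12) and LOC_Os02g14440 (-2.28). Both effects share the wet control libraries. The calls are from the fit without the replicate block, under which LOC_Os05g41630 and LOC_Os01g13690 were not called (edgeR adjusted p = 0.0512 and 0.0561).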

How the results depend on the processing

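The rule gave 83 genes as reported, 315 with a drought limit of 1.5 times and 17 with 3 times, and 145 without replicate 2 of every group. Leaving out 1 library gave 64 (wet control replicate 3) to 127 (wet control replicate 2). Other scalings, pseudocounts, minimums and heat limits gave 60 to 118. With totals alone, heat 30 min against the wet control called 13955 genes and heat 60 against 30 min 10746 (10067 higher, 679 lower) in place of 4971 (2121 higher, 2850 lower). Leaving out 1 library gave 2973 to 3777 genes in heat 60 against 30 min, 30 to 1302 in mild drought against wet control, 215 to 617 in severe drought against wet control and 0 to 4 in severe against mild drought. DESeq2 called 2290, 1811 and 45 genes in the last 3 comparisons, and fits to the compared groups alone 0 in mild and 32 in severe drought, in place of 294 and 550. With the replicate block, 4780 genes were called between heat times. The block gave 203 and 416 genes in mild and severe drought and 0 between the droughts, but there the replicates share only a number. Log2 fold changes in mild drought ranged over the left-out libraries from -0.81 (without mild drought replicate 3) to 0.53 for SUT1 (LOC_Os03g07480) and from -0.29 (the same) to 0.76 for CHS1 (LOC_Os11g32650), so both changed sign. The cause was not tested. Of the 2122 other values of named genes, 2008 counted as the same, 76 lost the call, 21 gained it and 17 moved. For members in the comparisons with the wet control, the same meant a log2 fold change that differed by less than the larger replicate SD. The side of the threshold was not counted there, so calls that members lost in those comparisons are not among the 76. For all other values it meant the same direction and side of the threshold.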
